A study of Mus musculus with 21 samples.

Results

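The transcripts of 8 proteins that carry out or regulate the release of synaptic vesicles were followed across mouse olfactory sensory neurons (OSNs) that expressed a Mex3a fusion protein, neurons that expressed the fusion's editing domain alone, and mCherry-negative cells of the same mice. The genes were Stx1a, Snap25, Vamp2, Syt1, Cplx1, Cplx2, Syn1 and Syn2. They were listed by symbol, with earlier results of these data known. All 8 were found among the 22786 genes shared by the deposited expression tables. Mex3a encodes an RNA-binding protein, and HyperTRIBE joins such a protein to an RNA-editing domain so that bound transcripts are marked by edits; only transcript levels were analysed here.

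Release of a vesicle depends on SNARE proteins. Syntaxin and SNAP-25 in the plasma membrane zip together with synaptobrevin (VAMP) on the vesicle and draw the membranes into fusion. Synaptotagmin on the vesicle binds calcium and triggers this step, complexins bind the assembled SNAREs and hold or promote it, and synapsins tie vesicles into a reserve pool. OSNs are glutamatergic; their axons leave the olfactory epithelium and release transmitter in the glomeruli of the olfactory bulb, so the transcripts measured in their cell bodies encode proteins that act far from the tissue sampled.

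All 21 libraries came from the main olfactory epithelium, dissociated with papain and sorted by mCherry, with 10 ng of total RNA as input. Every mouse carried a tetO construct that also encodes mCherry, and the mCherry-negative cells serve as each mouse's internal control. The genotype gg8tTA; OMPtTA; tetO-HyperTRIBE_mCherry (HT) gave 3 libraries of sorted immature and mature OSNs and 3 of negative cells. The genotype gg8tTA; OMPtTA; tetO-Mex3a_HyperTRIBE_mCherry (MexHT) gave 6 libraries of such neurons and 5 of negative cells. The genotype gg8tTA; tetO-Mex3a_HyperTRIBE_mCherry (gg8 MexHT) gave 2 libraries of sorted immature OSNs and 2 of negative cells. The gg8 driver acts in immature OSNs and the OMP driver in mature ones, so the construct depends on both the driver and the stage of the neuron. Controls carry the editing domain, the tTA drivers and mCherry too, and no library came from a mouse without a construct. Ages are not given in the sources used here. The gg8 libraries form a table of their own with another date in their names, so driver and date cannot be told apart, and tests were made only within a table. Levels are TPM, transcript counts scaled by gene length and to a fixed total in each library; log2 differences are on the log2(TPM + 1) scale, and the tests are limma's moderated tests with Benjamini-Hochberg adjustment over all genes fitted.

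Some properties of the libraries bear on every value below. Counts recovered from the TPM values gave 7316491 to 15022977 counts per library. Mex3a, which the fusion raises, was at 551.1 ± 377.9 TPM (SD, n = 6) in MexHT neurons. In HT neurons it was at 39.18 ± 19.76 TPM (n = 3). Negative cells held 121.6 ± 56.7 TPM in MexHT mice (n = 5) and 54.01 ± 22.83 TPM in HT mice (n = 3). Those of gg8 MexHT mice held 156.2 ± 77.92 TPM (n = 2). Whether the construct contributes to the Mex3a level of negative cells was not tested. The summed level of 10 mature OSN markers was 8605 to 13190 TPM in HT neurons, 1783 to 5962 TPM in MexHT neurons and 281.9 to 611.6 TPM in gg8 MexHT neurons. For 10 immature OSN markers the sums were 2625 to 3011, 4619 to 5454 and 5416 to 6465 TPM in the same order. Negative cells were not free of OSN transcript: their mature marker sums were 5042 to 10510 TPM in HT mice, 320.4 to 6716 TPM in MexHT mice and 6985 to 12720 TPM in gg8 MexHT mice, beside granulocyte marker sums of 2101 to 12670 TPM. The sums of 6 macrophage markers were 799.8 to 3542 TPM in HT neurons and 164.8 to 343.4 TPM in MexHT neurons. Xist, transcribed in female cells, ranged from 0.1256 to 60.3 TPM in HT neurons and from 58.35 to 139.8 TPM in MexHT neurons. In gg8 MexHT mice it was at 0.4411 and 159.4 TPM in the 2 neuron libraries. The 2 libraries of negative cells there held 0.144 and 21.44 TPM. In bulk libraries such as these, fewer cells of a type and less RNA per cell cannot be told apart.

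The promoters of Stx1a and Syt1 are shown because these abundant members moved in opposite directions between the neuron groups (values follow). Windows run from 250 bases before to 50 bases after the annotated start, are read 5′ to 3′ on the gene's strand and come from RefSeq (GRCm38.p6); 6 of the 8 genes, all but Snap25 and Vamp2, had a window in the table. Capitals mark a match to CCCNNGGG, the core letters bound by Ebf factors, which OSNs express. The Stx1a window lies at chr5:135023232-135023531 on the plus strand and the Syt1 window at chr10:109010926-109011225 on the minus strand.
Stx1a: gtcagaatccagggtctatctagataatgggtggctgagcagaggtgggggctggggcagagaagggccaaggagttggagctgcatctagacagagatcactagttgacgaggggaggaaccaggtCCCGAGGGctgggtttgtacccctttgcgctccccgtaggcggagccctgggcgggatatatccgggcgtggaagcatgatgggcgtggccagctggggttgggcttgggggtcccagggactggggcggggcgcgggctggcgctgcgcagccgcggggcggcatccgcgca
Syt1: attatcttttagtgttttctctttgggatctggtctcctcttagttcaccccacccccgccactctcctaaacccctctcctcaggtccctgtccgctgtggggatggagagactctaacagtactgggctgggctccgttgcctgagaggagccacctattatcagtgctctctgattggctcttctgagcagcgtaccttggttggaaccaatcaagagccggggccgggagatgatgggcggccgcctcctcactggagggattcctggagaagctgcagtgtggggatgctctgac
The Stx1a window held 1 match, 123 bases before the start, and had a GC content of 66.3%. The Syt1 window shown held none and had a GC content of 56.7%, against a median of 52.7% over 32851 windows of this length. A second Syt1 window, at chr10:109009062-109009361, also held none and had a GC content of 44.0%. The motif, read on both strands, occurred in 13.67% of all windows, so a match is common and describes the letters only. Of the other windows, that of Cplx2 held a CCCNNGGG match 223 bases before the RefSeq start, which lies upstream of the GENCODE start of the gene given below. The Syn1 window held the cyclic AMP response element TGACGTCA (1.79% of all windows) 159 bases before its start, and 2 copies of CAGCACC (7.14%), a half-site of the repressor REST, 230 and 176 bases before it. GGACAGC, the other REST half-site, was found in none of the 8 windows of these 6 genes and in 6.56% of all windows; none of these matches overlapped another.

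In the HT neurons, Snap25, Vamp2 and Syt1 were the most abundant of the 8 transcripts. Their means were 394.5 ± 96.57, 350.2 ± 38.36 and 337.1 ± 62.96 TPM (SD, n = 3), and the ranges of these neighbours overlapped. Cplx2 followed at 226.8 ± 31.33 TPM and Stx1a at 179.6 ± 29.5 TPM, again with overlapping ranges. Syn1 (90.64 ± 12.38 TPM), Syn2 (43.72 ± 8.287 TPM) and Cplx1 (0.9069 ± 0.3436 TPM) each lay below the gene before it in all 3 libraries, with no overlap. In the MexHT neurons the order began with Vamp2 (395.2 ± 66.26 TPM, n = 6) and Stx1a (360.6 ± 45.39 TPM), and Stx1a exceeded Snap25 (234.0 ± 86.0 TPM) in all 6 libraries. In the gg8 MexHT neurons Stx1a was highest in both libraries, at a mean of 446.9 ± 120.9 TPM (n = 2). The summed level of the 8 transcripts overlapped between the groups, at 1379 to 1801 TPM in HT, 1178 to 1737 TPM in MexHT and 865.2 to 1550 TPM in gg8 MexHT neurons.

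**Figure D1:**
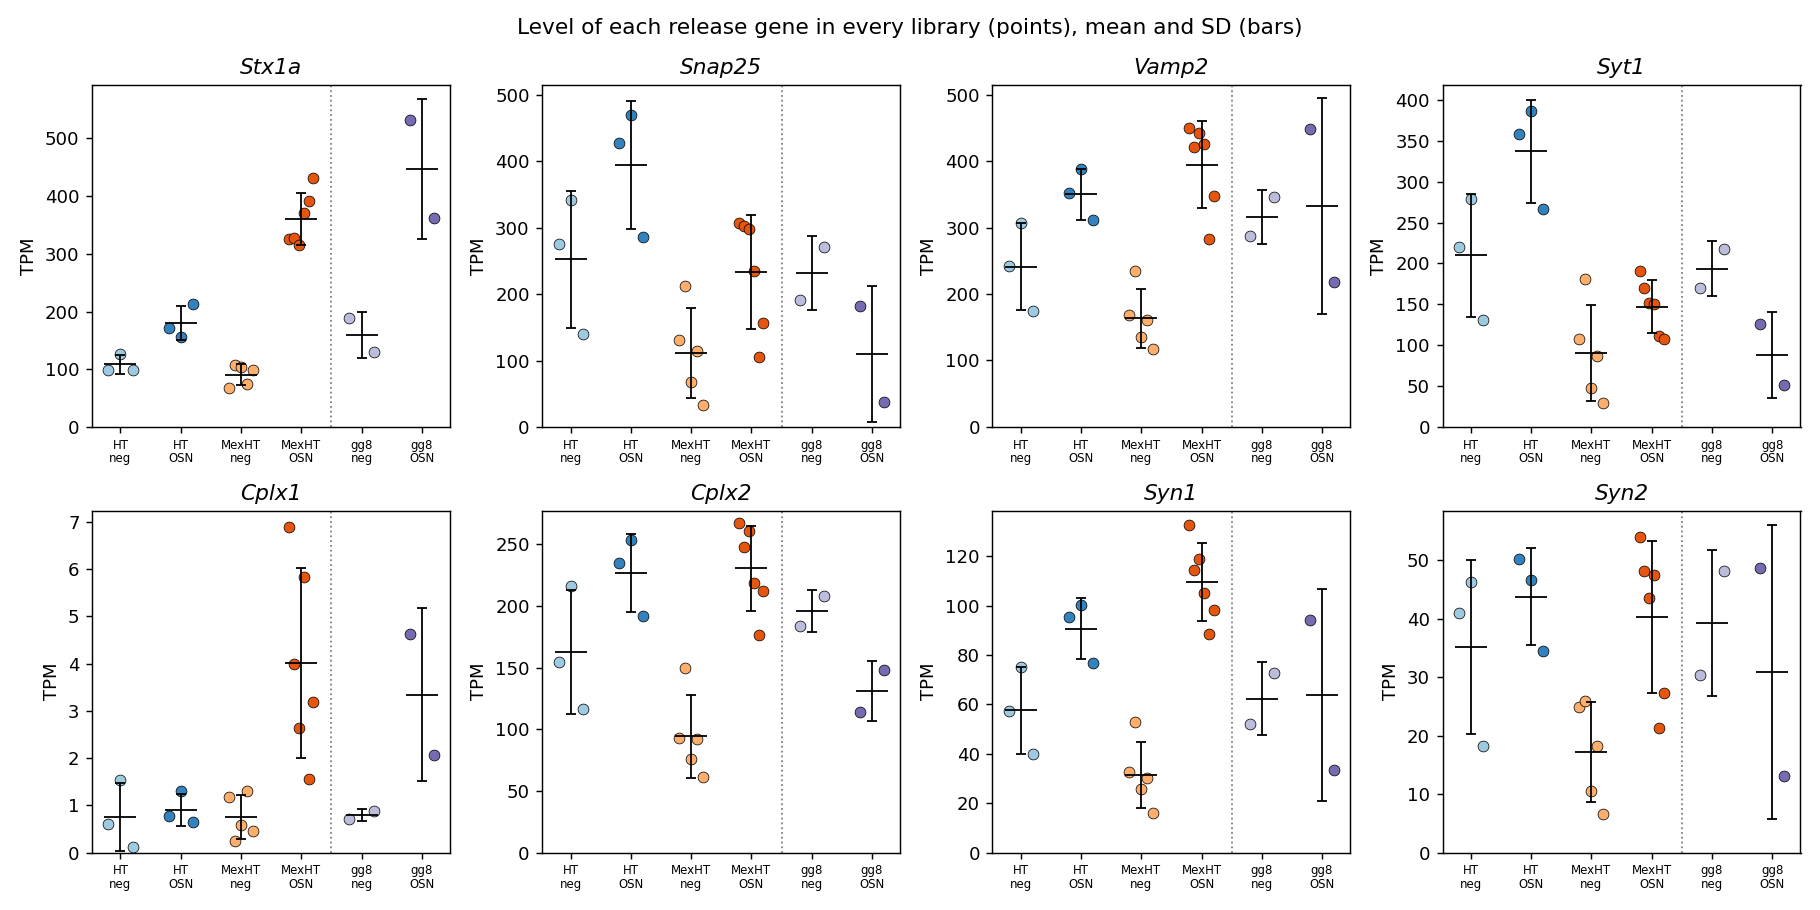
Level in TPM (vertical axes, linear from 0) of each gene in every library, by group (neg, mCherry-negative cells; OSN, sorted neurons; gg8, the gg8 MexHT mice); points are libraries in replicate order, bars are the mean and SD, and the dotted line separates tables that were scaled separately. Stx1a is higher in every MexHT neuron library (315.7 to 430.8 TPM) than in any HT neuron library (155.5 to 212.5 TPM), while Syt1 is lower in every one.

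The first comparison asks how the neurons with the Mex3a fusion differ from those with the editing domain alone under the same drivers. Stx1a and Cplx1 were higher in MexHT neurons and Syt1 was lower; Snap25, Vamp2, Cplx2, Syn1 and Syn2 did not pass the test. These 3 of 8 calls stand beside 36.8% of the 16067 genes tested (19.9% higher, 16.8% lower), and the groups did not overlap for the same 3 genes, against 38.4% of all genes. The median difference of the 8 was 0.09 and that of all genes 0.03. The share of members called was close to the background, and the called members moved in both directions.

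Stx1a encodes syntaxin 1A, a plasma membrane SNARE (GRCm38, chr5:135023482-135051100, plus strand). Its level in HT neurons was 170.9, 155.5 and 212.5 TPM. In MexHT neurons the lowest, median and highest of 6 libraries were 315.7, 349.3 and 430.8 TPM. The groups were apart, with the lowest fusion library well above the highest HT library. The difference was 1.00 on the log2 scale (SE 0.14, 95% interval 0.71 to 1.30, limma adjusted p = 0.000611). It passed under all 16 alternative settings, with adjusted p from 0.000239 to 0.0396. In the negative cells Stx1a showed no such gap, at 99.2, 126.5 and 99.21 TPM in HT mice and 68.15, 107.2, 104.3, 74.19 and 99.44 TPM in MexHT mice.

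Snap25 encodes the other plasma membrane SNARE (chr2:136713453-136782428, plus strand). It was at 428.0, 469.9 and 285.7 TPM in HT neurons. The 6 MexHT libraries had a lowest level of 104.6, a median of 266.3 and a highest of 307.9 TPM. Only the lowest HT library fell within the fusion range. The difference of -0.82 (SE 0.34, 95% interval -1.58 to -0.07) had an adjusted p of 0.0812, so it did not pass. MexHT neuron replicates 5 and 6, at 104.6 and 156.2 TPM, were the lowest; the same libraries had the lowest mature OSN marker sums (1783 and 3662 TPM) and the highest Stx1a (391.9 and 430.8 TPM). The part of neuron stage in these values was not tested.

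Vamp2 encodes the vesicle SNARE synaptobrevin (chr11:69088490-69092384, plus strand). HT neurons held 351.9, 387.7 and 311.0 TPM. MexHT neurons held a lowest level of 282.5, a median of 423.7 and a highest of 450.7 TPM. The groups overlapped, and the difference of 0.16 (SE 0.16, 95% interval -0.19 to 0.51) gave an adjusted p of 0.447.

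Syt1 encodes synaptotagmin 1, the calcium sensor of fast release (chr10:108497650-109010982, minus strand). It was at 357.9, 387.0 and 266.4 TPM in HT neurons. In MexHT neurons its lowest, median and highest levels were 108.0, 150.8 and 191.4 TPM. No fusion library reached the lowest HT library. Syt1 fell by 1.2 on the log2 scale (SE 0.2, 95% interval -1.64 to -0.77, adjusted p = 0.00158). The call was lost under 1 of 16 settings, with Xist level as a covariate, where the difference was -1.33 and the adjusted p 0.0819. In negative cells Syt1 spread widely, at 220.2, 279.1 and 130.4 TPM in HT mice and 107.2, 180.5, 48.05, 86.92 and 29.6 TPM in MexHT mice; the 2 lowest, replicates 3 and 5, also had the lowest mature OSN marker sums (1154 and 320.4 TPM).

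Complexins 1 and 2 bind the SNARE complex and are encoded by Cplx1 (chr5:108518554-108550024, minus strand) and Cplx2 (chr13:54371349-54383917, plus strand). Cplx1 was scarce: 0.7699, 1.298 and 0.6529 TPM in HT neurons, which are 6, 10 and 4 counts. In MexHT neurons it ranged from 1.549 to 6.895 TPM with a median of 3.588 TPM, from 14 to 50 counts. Every fusion library lay above every HT library, and the difference was 1.31 (SE 0.35, 95% interval 0.52 to 2.09, adjusted p = 0.0163). This call rests on few counts: it was lost with Xist level as a covariate (1.19, adjusted p = 0.311), without HT neuron replicate 1 (1.26, 0.0602) and without HT neuron replicate 3 (1.21, 0.0519). Cplx2, the main complexin here, was at 235.0, 253.1 and 192.1 TPM in HT neurons and between 176.6 and 266.9 TPM with a median of 233.1 TPM in MexHT neurons. The groups overlapped almost fully, with a difference of 0.02 (SE 0.15, 95% interval -0.31 to 0.34, adjusted p = 0.932). Cplx2 made up 99.49% to 99.67% of the summed TPM of the pair in HT neurons and 97.4% to 99.13% in MexHT neurons.

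Synapsins 1 and 2, which hold vesicles in the reserve pool, are encoded by Syn1 (chrX:20860511-20921004, minus strand) and Syn2 (chr6:115134902-115282006, plus strand). An exon of Syn1 overlaps the span of Araf, and an exon of Syn2 that of Timp4, each on the opposite strand. An exon of Syn2 also overlaps the span of Gm17482, a coding gene on the same strand. Whether exons of these genes overlap those of the synapsins was not checked. The strand setting of the counting is not given in the sources used here. Syn1 was at 95.25, 100.1 and 76.62 TPM in HT neurons and between 88.45 and 132.6 TPM with a median of 109.7 TPM in MexHT neurons. The ranges overlapped, and the difference was 0.27 (SE 0.14, 95% interval -0.04 to 0.58, adjusted p = 0.156). Syn2 was at 50.23, 46.53 and 34.39 TPM in HT neurons and between 21.33 and 53.93 TPM with a median of 45.45 TPM in MexHT neurons. Its difference was -0.17 (SE 0.28, 95% interval -0.80 to 0.46, adjusted p = 0.663). Neither synapsin passed the test; as a share of their summed TPM, Syn1 took 65.47% to 69.02% in HT neurons and 68.9% to 80.57% in MexHT neurons.

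Ratios within a library do not depend on scaling between libraries. They are given for Stx1a over Syt1, which moved in opposite directions, and over Snap25, whose own difference did not pass the test. Both ratios restate levels already given, so a gap in them between HT and MexHT neurons is no separate evidence. Stx1a over Snap25 was 0.3992, 0.3309 and 0.7439 in HT neurons. In MexHT neurons the lowest ratio was 1.06, the median 1.331 and the highest 3.746. The ratio exceeded 1 in each of the 6 fusion libraries and in none of the HT libraries. In gg8 MexHT neurons it was 2.924 and 9.619. Stx1a over Syt1 ran from 0.4018 to 0.7978 in HT, from 1.705 to 3.99 in MexHT and from 4.238 to 7.087 in gg8 MexHT neurons. Among negative cells, MexHT replicates 3 and 5 had ratios of Stx1a to Snap25 of 1.555 and 2.951 while the other 3 lay between 0.5056 and 0.6508. These are the same libraries that had the lowest mature marker sums of that group.

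**Figure D2:**
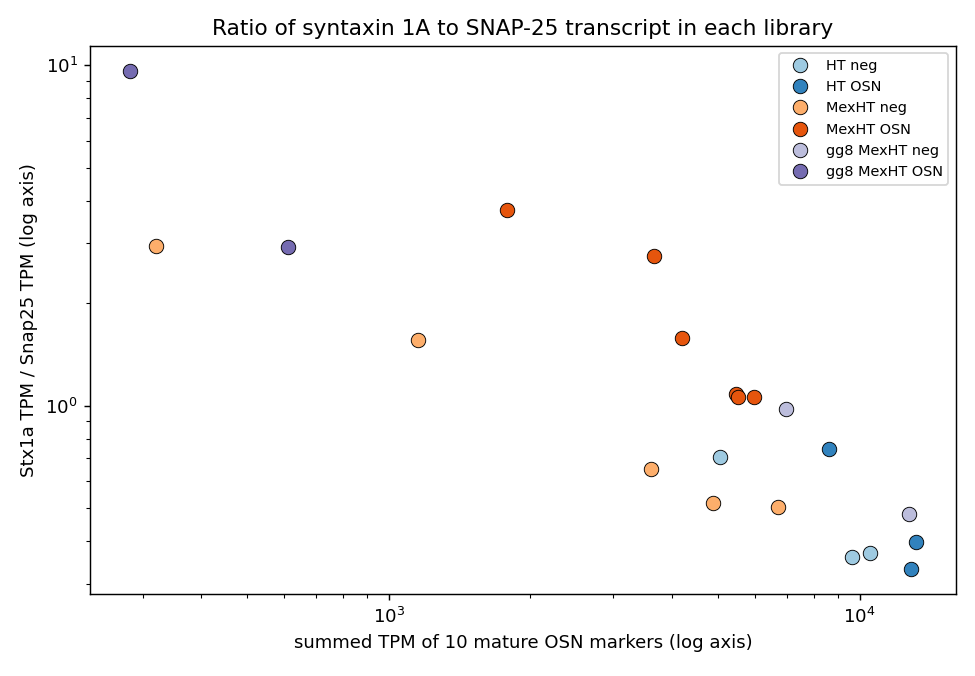
Stx1a TPM divided by Snap25 TPM (vertical log axis) against the summed TPM of 10 mature OSN markers (horizontal log axis) in each of the 21 libraries, coloured by group. Ratios above 2 occur in libraries with marker sums of 281.9 to 3662 TPM. Within that range, MexHT negative replicates 3 and 4, at 1154 and 3602 TPM, have lower ratios of 1.555 and 0.6508. The HT neurons, at 8605 to 13190 TPM, have ratios of 0.3309 to 0.7439.

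Syt2, a second fast calcium sensor, rose from 3.356 ± 2.87 to 13.5 ± 5.044 TPM (1.88, SE 0.4, adjusted p = 0.00565) while Syt1 fell. Syt1 accordingly made up 97.6% to 99.72% of the summed TPM of both in HT neurons, 87.05% to 93.86% in MexHT neurons, and 84.8% and 69.59% in the 2 gg8 MexHT neuron libraries.

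Of 73 other genes of the vesicle cycle, 66 were expressed enough to be tested between the neuron groups, and 16 rose and 16 fell. These shares, 24.2% in each direction, compare with 19.9% and 16.8% of all genes, and the median difference of the list was -0.07. The 32 calls fell to 4 (3 higher, 1 lower) with Xist level as a covariate and to 20 without HT neuron replicate 1 or 2. The active zone, where vesicles dock, had 3 of 8 genes higher and none lower: Ppfia3 (liprin alpha 3, a scaffold; 2.62, adjusted p = 9.58e-05) and Erc2 (an active zone scaffold; 1.42, 0.0016) were the largest. Among SNAREs and their regulators, 4 of 15 rose and 5 fell. Unc13a, which primes vesicles by opening syntaxin, rose by 0.77 (adjusted p = 0.00198), and Snapin, a SNAP-25 binding protein, fell by 0.98 (adjusted p = 0.00803).

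Vesicle membrane proteins had 2 of 13 genes higher and 4 lower. Sv2b (-1.36, adjusted p = 0.00638), Sv2c (-1.30, 0.00653), Syngr1 (-1.32, 0.014) and Syp (synaptophysin; -0.83, 0.0117) fell, while Sv2a (0.25, 0.356) and the vesicle GTPase Rab3a (-0.09, 0.668) did not pass. Slc17a6, the vesicular glutamate transporter VGLUT2, fell from 298.8 ± 47.96 to 94.33 ± 22.27 TPM (-1.68, adjusted p = 0.00039). It also stands on the list of mature OSN markers, of which 9 of 10 fell. Of the presynaptic calcium channels and receptors, 3 of 7 fell and none rose. The P/Q-type channel gene Cacna1a (-1.15, adjusted p = 0.00424) and the GABA-B receptor gene Gabbr1 (-0.60, 0.0365) were among them, and the N-type channel gene Cacna1b did not pass (-0.17, 0.338). In endocytosis 3 of 11 rose, endophilin A1 (Sh3gl2; 1.12, adjusted p = 0.000181) with the largest change of them, and 3 fell. Of the synucleins, Sncb rose (1.77, adjusted p = 0.00152). Immature OSN markers rose in 8 of 10 cases and macrophage markers fell in 6 of 6; their part in these differences was not tested.

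**Figure D3:**
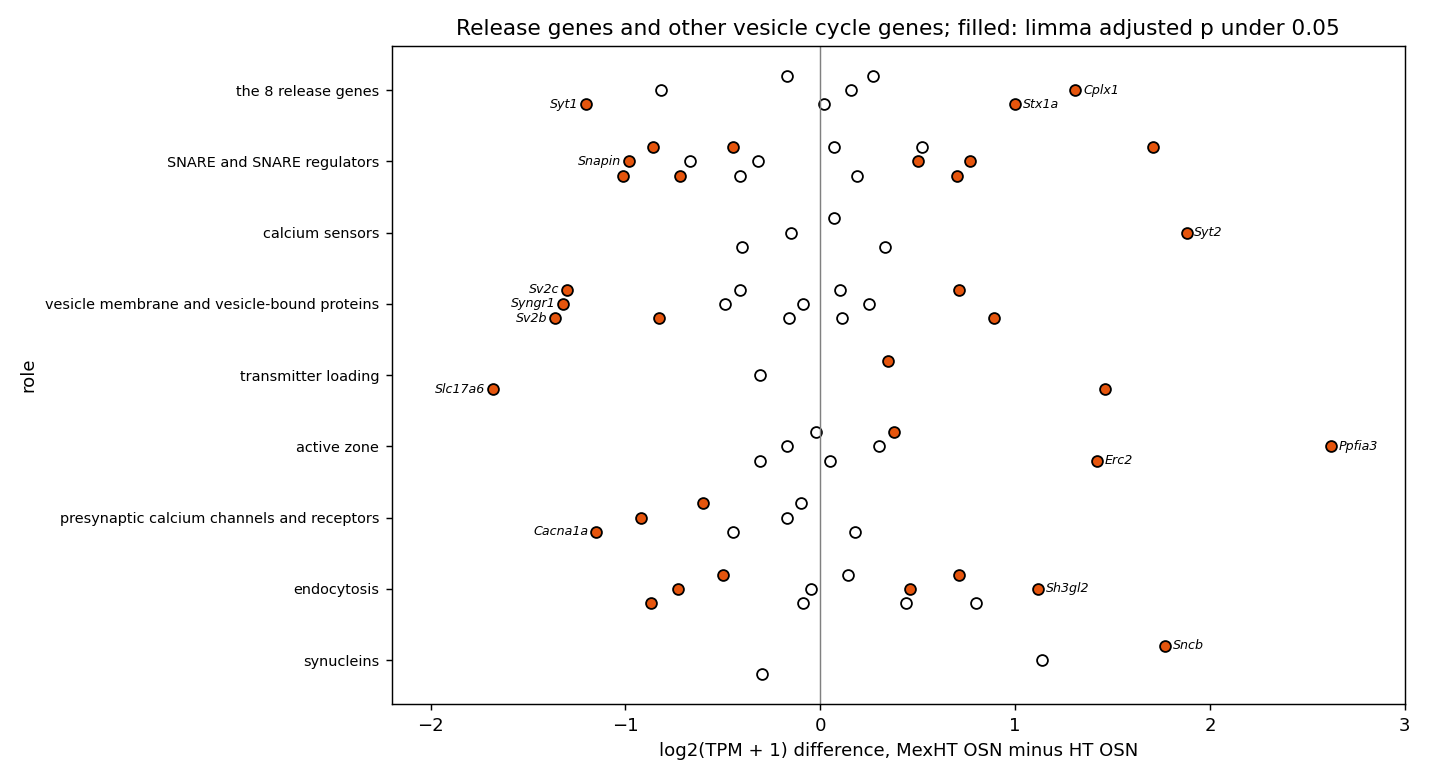
log2(TPM + 1) difference between MexHT and HT neurons (horizontal axis) of the 8 release genes and of 66 other vesicle cycle genes by role (rows); each point is a gene, filled where limma's adjusted p is under 0.05, and names mark some of the called genes with larger changes. Called genes lie on both sides of 0, with Ppfia3 at 2.62 and Slc17a6 at -1.68.

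Between the negative cells of MexHT and HT mice, no member passed the test, and none of the 16860 genes did (0% called; 3465 had an unadjusted p under 0.05, 20.6%). Cplx1 was too low to be tested. All 7 tested members had lower means in MexHT mice, with differences from -1.40 for Syt1 (SE 0.54, adjusted p = 0.22) and -1.32 for Snap25 (SE 0.55, 0.235) to -0.27 for Stx1a (SE 0.18, 0.403). Their median was -0.9 against -0.01 for all genes. The ranges overlapped for each of the 7 genes, against 8.71% of all genes without overlap. With the replicate number as a block, none passed either (-0.23 to -1.03, adjusted p 0.117 to 0.435). The 3 same-numbered pairs join different mice. In 3 of them the MexHT library was lower for each member tested but Stx1a, for which it was lower in 2. The share of all genes with this pattern is not given here.

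Within MexHT mice, all 8 transcripts were higher in neurons than in negative cells. The background is high: 63.4% of 16522 genes were called, 35.8% as higher. Stx1a led with a difference of 1.99 (SE 0.14, adjusted p = 1.45e-07), from 90.65 ± 18.12 TPM (n = 5) to 360.6 ± 45.39 TPM (n = 6). Syn1 was higher by 1.85 (adjusted p = 1.9e-05), Cplx1 by 1.45 (0.00102), Cplx2 by 1.33 (7.82e-05), Vamp2 by 1.29 (4.39e-05) and Syn2 by 1.26 (0.00668). Snap25 (1.21, SE 0.43, adjusted p = 0.025) and Syt1 (0.93, SE 0.37, 0.0441) were nearest to the threshold. The groups did not overlap for 5 of 8 genes, against 43.1% of all genes, and the median of the 8 was 1.31 against 0.16. Median-of-ratios scaling took the median of all genes to 0.03 and Syt1 to 0.79 (adjusted p = 0.0785).

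The Snap25 and Syt1 calls depend on single libraries, and that of Syt1 also on the settings: it was lost with no filter (0.93, adjusted p = 0.0583), with voom (0.82, 0.0638) and with median-of-ratios scaling, and passed under 8 of 18 alternatives. With the mouse as a block both passed, Snap25 at 1.30 (0.00065) and Syt1 at 1.01 (0.0076). Snap25 lost its call without MexHT neuron replicate 1, 2 or 3 or negative replicate 3 or 5 (adjusted p 0.0506 to 0.0606), and Syt1 without neuron replicate 1 to 4 or negative replicate 3, 4 or 5 (0.0593 to 0.11). Within mice, which remove differences between animals, neurons exceeded negative cells in 5 of 5 mice for each gene but Syt1, which did so in 4 of 5. The share of all genes higher in every mouse is not given here, so these counts have no background. The within-mouse differences were 1.589 to 2.307 for Stx1a and -0.087 to 1.874 for Syt1, on the log2 scale. Granulocyte and connective tissue marker sums were 9629 to 12670 and 11280 to 23700 TPM in these negative cells and 119.5 to 293.5 and 126.2 to 242.2 TPM in the neurons. So the negative cells hold other cell types as well as OSNs, and the share of either in these differences was not tested.

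Most of the vesicle cycle moved in the same direction in this contrast: 51 of 66 genes were higher (77.3%, against 35.8% of all genes) and 2 lower (3.03%, against 27.6%), with a median of 1.11. All 8 active zone genes and all 5 calcium sensors tested were higher. Large changes among them were those of Ppfia3 (2.30, adjusted p = 1.03e-06), Syngr3 (2.14, 1.39e-06), the GABA-B receptor gene Gabbr2 (2.10, 8.51e-05), Sh3gl2 (2.03, 7.02e-08) and Syt2 (1.98, 1.23e-05). The 2 that were lower were Snap23, the SNAP-25 relative of many other tissues (-2.10, 1.17e-06), and Rab27b, a GTPase of secretory cells (-2.42, 8.19e-07). Slc17a6 did not pass (0.71, SE 0.47, adjusted p = 0.205).

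Within HT mice, only Stx1a of the 7 members tested passed, at 0.72 (SE 0.16, adjusted p = 0.0346), from 99.2, 126.5 and 99.21 TPM in negative cells to 170.9, 155.5 and 212.5 TPM in neurons. Here 11.3% of 17027 genes were called, 2.18% as higher. Cplx1 was too low to be tested. The other 6 differed by 0.39 (Syn2) to 0.73 (Syt1), and the median was 0.68 against 0.1 for all genes. Groups did not overlap for 3 of 7 members and 41% of all genes. With the mouse as a block, 29.2% of all genes were called, 13.2% as higher, and 6 of 7 members passed: Snap25 (0.71, adjusted p = 0.0185), Syt1 (0.73, 0.0158), Syn1 (0.68, 0.0179), Vamp2 (0.57, 0.0236) and Cplx2 (0.52, 0.0307) joined Stx1a, and Syn2 did not. Each of the 7 was higher in the neurons of 3 of 3 mice, a count without the share of all genes beside it. Other cell types moved with this contrast: 5 of 6 macrophage markers were higher in the neurons, with sums of 799.8 to 3542 TPM against 111.7 to 212.6 TPM in negative cells, and all 6 granulocyte and all 5 connective tissue markers were lower. Their part in the members' differences was not tested. Without the block, the Stx1a call was lost whenever a library other than negative replicate 2 was left out (0.0643 to 0.135).

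Of the 66 other vesicle cycle genes, 7 were higher (10.6%, against 2.18% of all genes) and 1 lower (1.52%, against 9.11%) in HT neurons, with a median of 0.65. With the mouse as a block, 45 were higher and 2 lower, beside 13.2% and 15.9% of all genes. Without the block, the 8 calls went to 2 with voom or without neuron replicate 2, to 0 without neuron replicate 1 or 3 or negative replicate 1 or 3, and to 42 without negative replicate 2. The calcium channel genes Cacna1a (1.16, adjusted p = 0.0381) and Cacna2d1 (0.74, 0.043), the vesicle SNARE gene Vamp1 (0.98, 0.0238), Sh3gl2 (0.91, 0.0358), Scamp5 (0.83, 0.039) and Bin1 (0.82, 0.0381) were higher. Rab27b was lower (-1.58, 0.0323).

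**Figure D4:**
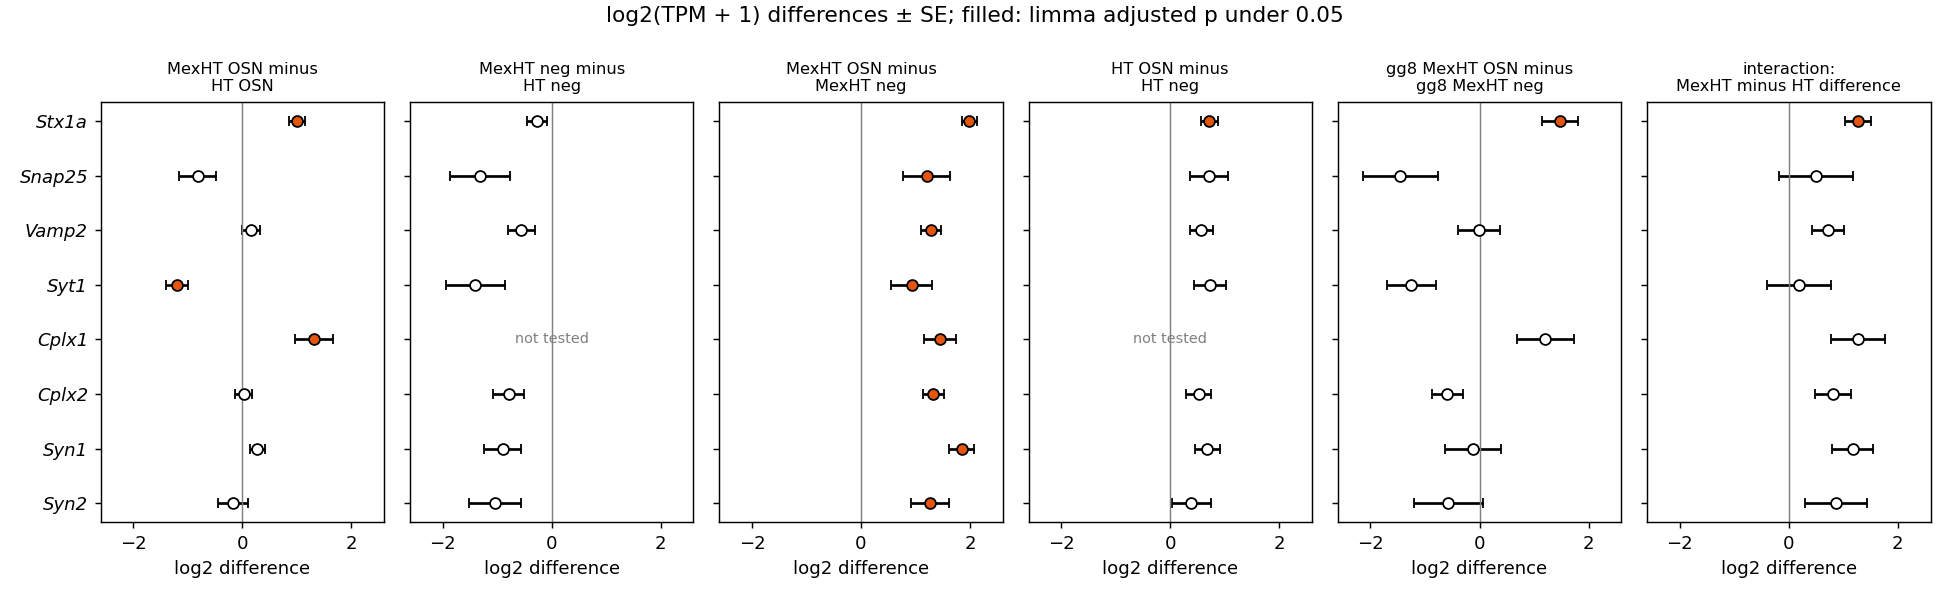
log2(TPM + 1) differences (horizontal axes) of the 8 genes (rows) in the 6 comparisons (panels); bars are SE and filled points have a limma adjusted p under 0.05. Stx1a is filled in 5 of the 6 panels, at 0.72 to 1.99, and no gene is filled between the negative cells.

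The interaction of construct and fraction tests whether the neuron-to-negative difference was larger in MexHT than in HT mice. It was larger for Stx1a, by 1.27 (SE 0.23, 95% interval 0.79 to 1.76, adjusted p = 0.00276), and it passed under all 23 alternatives (1.16 to 1.40). This 1 of 8 compares with 12.4% of 16785 genes called, 7.05% as larger. Syn1 came next at 1.17 (SE 0.38, adjusted p = 0.0509), then Cplx1 (1.27, 0.106), Cplx2 (0.81, 0.12), Vamp2 (0.72, 0.125) and Syn2 (0.87, 0.342), while Snap25 (0.50, 0.679) and Syt1 (0.19, 0.868) were smallest. With the mouse as a block, 6 of 8 passed, all but Snap25 (0.216) and Syt1 (0.659). This stands beside 15.5% of all genes, 8.5% as larger and 7.01% as smaller. For Syn1, Syn2, Vamp2 and Cplx2, MexHT and HT neurons differed by only 0.27, -0.17, 0.16 and 0.02. Their differences between MexHT and HT negative cells were larger, at -0.9, -1.04, -0.56 and -0.79. Without a block, none of these differences between the genotypes passed. Of the 66 other genes, 8 had a larger difference in MexHT mice and 1 a smaller one, Snap23 (-1.36, adjusted p = 0.0288), against 7.05% and 5.37% of all genes; the 9 calls became 22 with the block and 17 without MexHT negative replicate 2. The comparison uses all 4 groups, so it shares libraries with those above. All 6 macrophage markers had a smaller difference in MexHT mice, by -2.46 to -3.10, and 2 of 10 immature OSN markers, Gng8 (1.14, adjusted p = 0.0241) and Crmp1 (1.29, 0.00293), a larger one, while none of the 10 mature OSN markers was called. Their part in the interaction of the members was not tested.

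With the gg8 driver alone, which acts in immature OSNs, the members split within each mouse. Stx1a was at 532.4 and 361.5 TPM in neurons and 188.0 and 130.6 TPM in negative cells, higher by 1.48 (SE 0.33, adjusted p = 0.0451). It was the only 1 of 8 to pass, beside 8.32% of 16490 genes, 1.12% as higher. The call is at the edge: it was lost with a pseudocount of 0.1 (0.0607) and with voom on counts (0.053). It was also lost without any library but neuron replicate 1 (differences 1.22 to 1.76), though each such fit leaves 1 library in a group. The Stx1a difference was nevertheless alike in both mice, at 1.462 and 1.497.

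Snap25 was at 182.1 and 37.58 TPM in the gg8 MexHT neurons and 191.9 and 270.7 TPM in the negative cells. Syt1 was at 125.6 and 51.01 TPM against 169.9 and 217.8 TPM. Neurons were lower than negative cells in both mice for Snap25, Syt1 and Cplx2, but the differences of -1.45 (adjusted p = 0.202), -1.25 (0.123) and -0.59 (0.203) did not pass. Without neuron replicate 1, which left 1 neuron library, the differences were -2.57 for Snap25 and -1.89 for Syt1. Vamp2, at 448.4 and 218.3 against 288.0 and 345.5 TPM, Syn1 and Syn2 were higher in the first mouse and lower in the second, with differences of -0.01, -0.12 and -0.57. Cplx1 was at 4.636 and 2.058 TPM in neurons (36 and 22 counts) and 0.7061 and 0.8859 TPM in negative cells (6 and 7 counts), a difference of 1.21 (adjusted p = 0.171). The median of the 8 was -0.34 against 0.09 for all genes, and groups did not overlap for 5 of 8, against 63.6% of all genes.

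These negative cells carried abundant mature OSN transcript, with Omp at 2749 ± 1148 TPM (n = 2) against 109.0 ± 78.06 TPM in the gg8 MexHT neurons; 8 of 10 mature markers were lower in the neurons. Among the other 66 vesicle cycle genes, 4 were higher (6.06%, against 1.12% of all genes) and 2 lower (3.03%, against 7.2%). Ppfia3 (2.73, adjusted p = 0.0287), Syt2 (2.47, 0.0397), Unc13a (1.37, 0.048) and Bin1 (1.37, 0.0376) were higher, and the dopamine receptor gene Drd2 (-5.25, 0.0106) and Sv2c (-3.14, 0.0446) lower. These 6 calls went to 2 with a pseudocount of 0.1. They also changed when a library was left out, but each such fit leaves 1 library in a group.

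**Figure D5:**
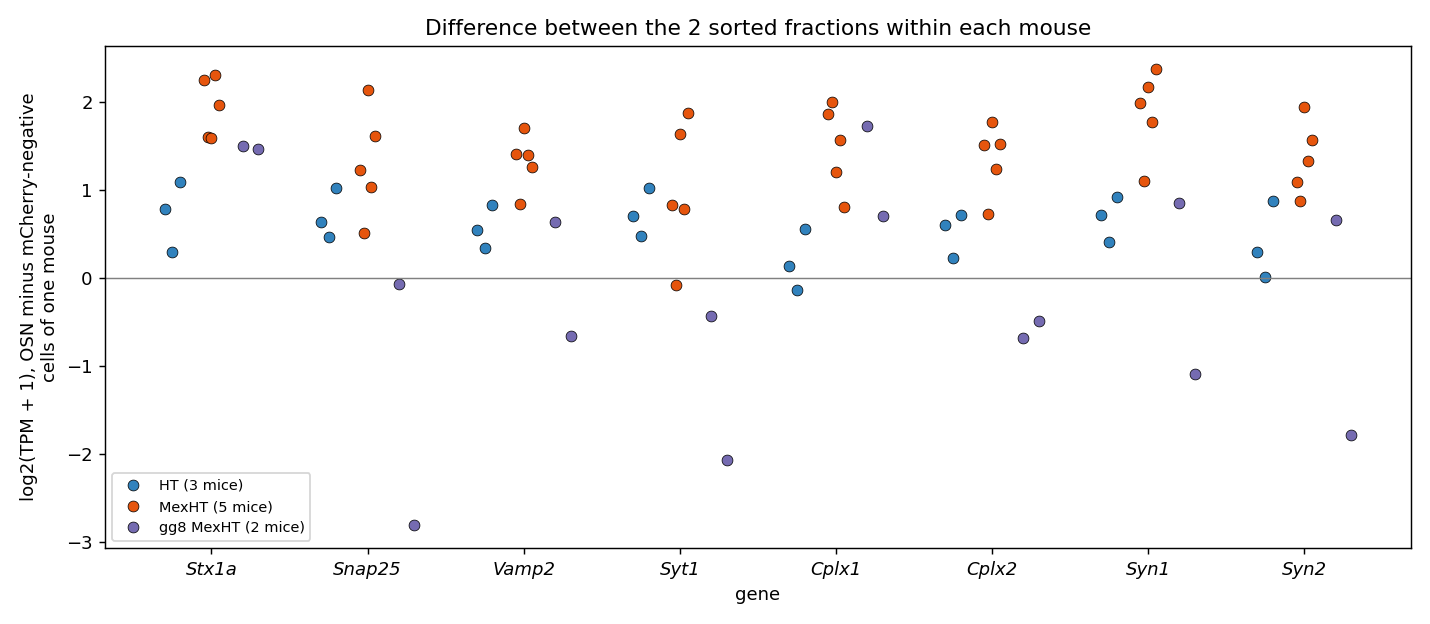
Difference in log2(TPM + 1) between neurons and mCherry-negative cells of the same mouse (vertical axis) for each gene (horizontal axis); each point is a mouse, coloured by genotype. Stx1a is above 0 in all 10 mice, from 0.296 to 2.307, while Snap25, Syt1 and Cplx2 are below 0 in both gg8 MexHT mice.

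The genes whose levels ran most like each member were sought over the 17 libraries of the table with both drivers, among 13331 genes, by Pearson's r of log2(TPM + 1). These libraries include both fractions, so the values share cell make-up and depth and serve only as a description. Stx1a was most like Crmp1 (0.991), which is on the immature OSN marker list, and Gprin1 (0.989), a growth cone protein gene. Snap25 was most like Rtp2 (0.996), a chaperone of odorant receptors, and Armc4 (0.995); Syt1 was most like Lpcat4 (0.995) and Spock2 (0.991). For Vamp2 the nearest were Hcn4 (0.993) and Mgat4b (0.991), and for Cplx2 they were Lrrc10b (0.99) and Gabbr2 (0.986). Syn1 was close to Lhfpl4 (0.99), and Syn2 was nearest to the cilium-related genes Cfap126 (0.977) and Ccdc148 (0.975). Cplx1, with its low counts, had lower values, at 0.92 for Sh3gl3 and 0.906 for Cd99l2.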

How the data were processed

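The authors deposited TPM values per gene, in one table for the gg8 libraries and another for the gg8 and OMP libraries. Per the submitters' processing notes, FastQC, cutadapt, STAR and bedtools were used with the mm10 build; the counter, annotation and strand setting are not given in the sources used here. Per the labels' protocols, libraries were made from total RNA with Takara's stranded SMARTer kit for pico amounts, so unspliced RNA can contribute to the values. The 27 symbols turned into dates were removed (at most 0.221% of TPM). Whole read counts could be recovered for 99.99% and 99.84% of genes (within 0.02 and 0.05 counts); they cover counting error only and were used for depth and for the voom alternative.

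limma 3.58.1 (R 4.3.3; empirical Bayes with trend) was fitted to log2(TPM + 1) for every gene averaging 1 TPM or more over the libraries fitted; an adjusted p under 0.05 is a call. The scripts were tested on simulated data. Alternatives were a pseudocount of 0.1, no filter, median-of-ratios scaling, voom, a replicate block, Xist level as a covariate, 1 fit of all 4 groups, and leaving out each library. Groups followed the labels. Negative cells and neurons with the same number are from the same mouse, per the labels, so they are paired. MexHT neuron replicate 6 had no partner. Deviations from the group means correlated within these pairs at -0.109 to 0.421 in MexHT mice, where 3 of 5 best matched their own number. They correlated at 0.174 to 0.475 in HT mice (2 of 3) and at 0.018 in gg8 MexHT mice. Same-numbered negative libraries of MexHT and HT mice come from different mice and share only a number. Their deviations correlated at 0.231 to 0.418. The main fits used no pairing in any comparison, and the replicate block was an alternative. No pair of libraries of a group agreed within sampling noise (lowest chi-square per degree of freedom 3.23 over 33 pairs).

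The members and all gene lists were chosen with earlier results of these data known. All members and the partner genes fixed with them were to be named; other vesicle cycle genes were named as the up to 6 largest called changes in each direction, without overlap and at 5 TPM or more in the higher group. For the interaction, Snap23 was named after its value was seen. For each member the 2 most similar genes were named. A few genes that these rules select are not reported here, though they are counted in the list totals. Gene positions are from GENCODE M21 (GRCm38).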

Additional observations from a re-analysis of the deposited data

Results flagged for a closer look

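The difference between neurons and negative cells was larger in MexHT than in HT mice for Stx1a, by 1.27 on the log2 scale (limma interaction test, SE 0.23, adjusted p = 0.00276). Stx1a was higher in neurons than in negative cells in 5 of 5 MexHT mice, by 1.589 to 2.307. It was higher in 3 of 3 HT mice, by 0.296 to 1.091. These ranges did not overlap, and neither did those of Syn1, Vamp2, Cplx1 and Cplx2. The share of all genes without overlap is not given here. The interaction test used the same libraries, so the gap is no separate evidence. Of the 16 checks for a single library far from the rest of its group, none singled one out. These checks covered the 8 members in MexHT neurons and MexHT negative cells. The HT and gg8 MexHT groups were not checked.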

How the results depend on the processing

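Of the 724 differences of single members recomputed under alternative settings, 655 kept their direction and their side of the threshold, 30 lost a call, 24 gained one and 15 changed sign. The Stx1a differences between the neuron groups and in the interaction, and those of Stx1a, Syn1, Syn2, Vamp2, Cplx1 and Cplx2 between MexHT neurons and negative cells, held under every setting run for them. Between MexHT and HT neurons, Xist level as a covariate left 1 member called, Stx1a, as genes called went from 5907 to 329; Xist separates the groups in part, and the cause was not tested. There the Cplx2 difference, near 0 throughout, became -0.02 under median-of-ratios scaling, -0.11 with the Xist covariate and -0.10 to 0.10 with a library left out. In that comparison the libraries share only a number (correlations -0.228 to 0.132, 1 of 3 best matched to its own number); with the replicate block Syn2 was at 0.16 and Syn1 at 0.43 (adjusted p = 0.0404).

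Within HT mice the members called were 0 with voom, 6 with the replicate block and 0 to 4 with a library left out, and genes called were 1923 against 1082, 4967 and 660 to 4183. Within gg8 MexHT mice they were 0 with a pseudocount of 0.1, 0 with voom and 0 to 3 with a library left out, and genes called were 1372 against 646 with the pseudocount and 0 to 3703. When a gg8 library was left out, the lone library was assumed to vary like the other group. In the interaction they were 2 with voom, 6 with the replicate block, 2 with the Xist covariate and 1 to 4 with a library left out, and genes called were 2086 against as few as 1195. Signs also changed with a library left out for Syn2 within HT mice (-0.01 to 0.64), for Syn1 (-0.85 to 0.61), Syn2 (-1.47 to 0.34) and Vamp2 (-0.53 to 0.51) within gg8 MexHT mice, and for Syt1 in the interaction (-0.14 to 0.51). Between negative cells 0 members were called under every setting, against 24 genes with all 4 groups in 1 fit, 1 with no filter and 0 to 4 with a library left out. The replicate block changed no other member's call. The low counts of Cplx1 limit every statement on it.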
